A study of Mus musculus with 23 samples.

Results

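Most of the 10 genes described here encode enzymes and partner proteins with which the liver makes fatty acids from sugar. Srebf1 encodes transcription factors and Pnpla3 a lipid droplet protein. All 10 were measured by 23 probe sets of the array's 45037 probe sets for mouse transcripts. A probe set was taken only where the platform annotation paired it with 1 of these genes alone, and each gene was then represented by whichever of its probe sets had the greatest mean signal over the 23 arrays, which made 10 of 18193 genes. Srebf1, Fasn and Pnpla3 had 1 probe set each, Acaca, Acacb, Scd1 and Me1 had 2, Elovl6 and Thrsp had 3, and Acly had 6. No filter on low values was used, so all 10 genes and all 23 probe sets stayed in. The 13 probe sets that do not represent their gene are described beside it.

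Fatty acid synthesis starts in the cytosol, where ATP citrate lyase splits citrate into acetyl-CoA, acetyl-CoA carboxylase turns it into malonyl-CoA, and fatty acid synthase joins these units into palmitate with NADPH from malic enzyme and other sources. Elongase and desaturase then make longer and unsaturated fatty acids. In the liver, insulin and feeding raise these transcripts through the transcription factor SREBP-1c, a product of Srebf1, and through ChREBP, encoded by Mlxipl, and fasting lowers them.

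Gene expression was measured on Affymetrix whole-genome mouse arrays in the livers of 23 male mice of the strain FVB/N-SULT1A1/2, 1 array per mouse. All mice, controls included, carried the human sulfotransferase genes SULT1A1 and SULT1A2 as a hemizygous transgene. The labels give their age as 5 weeks in all groups, which cannot be the age when killed at 90 d. They received by mouth either 1-methoxy-3-indolylmethyl alcohol (1-MIM-OH, an indole alcohol that forms from a glucosinolate of cruciferous plants) at 26 mg/kg body mass in glyceryl trioctanoate, a medium-chain triglyceride, or this vehicle alone, 3 times a week. Mice were killed 24 h after their final dose, which was dose 10 at 21 d (5 treated and 6 vehicle mice) or dose 40 at 90 d (6 treated and 6 vehicle mice). A further treated array at 21 d was left out by the submitters because of hybridisation artefacts. All groups therefore received a triglyceride 3 times a week and no group went without it. No source used here states whether the mice were fed or fasted when killed.

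The deposited values are log2 signals, so a difference of 1 is a doubling of the signal. Array medians lay between 5.53 and 5.61, single values between 2.23 and 15.41, and arrays of the same group correlated at 0.984 to 0.997 over all probe sets. The hepatocyte markers (5 of 6 listed genes measured, all with a mean of at least 6) had a summed signal of 17.34 to 17.42 on the log2 scale over all arrays. Adipocyte markers (6 of 8 measured) summed to 8.58 to 9.83, with overlap of all 4 groups. The Gapdh control probe sets read the 3' and the 5' end of 1 transcript, and their 3' minus 5' difference grows where RNA or labelled product is shorter. It was 0.33 ± 0.13 (SD, n = 6) in vehicle and 1.00 ± 0.51 (SD, n = 5) in treated livers at 21 d, and 0.50 ± 0.15 (SD, n = 6) and 0.53 ± 0.40 (SD, n = 6) at 90 d. It exceeded 0.9 on treated 21 d replicates 1, 3, 4 and 5 and on treated 90 d replicate 6. Treated 21 d replicate 2 stood apart from the other treated livers of its group, with a Gapdh difference of 0.14 and the highest summed signal of all 23 arrays for Kupffer cell and macrophage markers (14.79, 8 of 8 listed genes measured) and for neutrophil markers (11.79, 2 of 4 measured). In whole liver, fewer cells of a type and less RNA per cell cannot be told apart.

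Promoter windows of 250 bases before to 50 after a transcription start were found for 9 of the 10 genes, in 12 windows (RefSeq, GRCm38.p6). Scd1 was the gene without a window. The windows of Fasn, Thrsp and Acly are shown because Fasn and Thrsp varied together between animals and Acly did not vary with them, as described further down. Capitals mark the CCAAT box (CCAAT or, on the other strand, ATTGG) and the GC box (GGGCGG or CCGCCC). They lie on the minus strand at chr11:120824498-120824797, chr7:97417501-97417800 and chr11:100527951-100528250.
Fasn: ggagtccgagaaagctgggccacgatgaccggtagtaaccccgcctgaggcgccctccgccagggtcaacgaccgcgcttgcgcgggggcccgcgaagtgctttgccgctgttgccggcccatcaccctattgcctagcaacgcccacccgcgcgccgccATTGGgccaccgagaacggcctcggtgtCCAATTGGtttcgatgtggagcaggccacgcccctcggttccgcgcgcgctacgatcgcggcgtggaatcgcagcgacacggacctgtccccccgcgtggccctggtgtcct
Thrsp: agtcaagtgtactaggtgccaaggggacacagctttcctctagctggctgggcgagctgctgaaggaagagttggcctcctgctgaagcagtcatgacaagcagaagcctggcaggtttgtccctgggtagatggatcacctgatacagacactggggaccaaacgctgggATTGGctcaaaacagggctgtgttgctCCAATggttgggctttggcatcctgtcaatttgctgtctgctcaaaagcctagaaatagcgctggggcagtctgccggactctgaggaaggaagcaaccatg
Acly: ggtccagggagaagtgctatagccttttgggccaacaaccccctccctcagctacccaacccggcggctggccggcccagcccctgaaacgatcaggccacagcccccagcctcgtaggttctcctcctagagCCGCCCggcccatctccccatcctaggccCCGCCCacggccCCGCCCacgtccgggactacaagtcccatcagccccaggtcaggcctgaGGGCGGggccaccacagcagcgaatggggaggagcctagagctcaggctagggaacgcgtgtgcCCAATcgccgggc
The Fasn window held 3 CCAAT matches, of which a pair overlapped in a palindrome, and no GC box, and the Thrsp window held 2 CCAAT matches and no GC box. The Acly window held 4 GC boxes and 1 CCAAT match, which lay 38 bases after the start. Over the 12 windows, 8 held a CCAAT match, against 37.4% of all 32851 windows in the table. They came from 7 of the 9 genes, Srebf1, Fasn, Acacb, Acly, Me1, Thrsp and Pnpla3. A GC box was found in 5 of the 12 windows, against 35.7% of all windows, from the 4 genes Srebf1, Acly, Me1 and Pnpla3. Acaca and Elovl6, which varied with Fasn, held neither, so the contrast of the windows shown does not hold over the genes. Neither the E-box CACGTG (7.15% of all windows) nor the sterol regulatory element TCACNCCAC (1.24% of all windows) was found on either strand in any of the 12. A match describes letters in this window alone.

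The first comparison asked whether 10 treatments with 1-MIM-OH changed the fatty acid synthesis genes. Of all probe sets, 0.957% passed at an adjusted p under 0.05 (limma, Benjamini-Hochberg adjustment over 45037 probe sets), whereas 0 of the 10 representative probe sets did. At an unadjusted p under 0.05, 4 of the 10 and 15.8% of all probe sets were found. The differences were positive for 8 genes and negative for 2, with a median of 0.23 on the log2 scale, beside a median of -0.02 and 43.7% positive differences over all genes. None of the 10 had treated and vehicle livers that did not overlap, which 2.13% of all probe sets had.

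Srebf1, which encodes the SREBP-1 transcription factors, had log2 signals of 12.50, 10.92, 12.56, 11.83 and 11.13 in the 5 treated livers at 21 d, and of 10.98 to 11.91 (median 11.60) in the 6 vehicle livers. Replicates 1 and 3 of the treated group lay above every vehicle liver and replicate 2 below every one, so the treated livers enclosed the whole range of the vehicle livers. The difference was 0.24 ± 0.25 (SE, limma adjusted p = 0.702). The annotation assigns its single probe set, 1426690_a_at, to the gene and to no isoform.

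Fasn, the fatty acid synthase gene (probe set 1423828_at), gave 11.63, 10.32, 11.97, 11.31 and 10.87 in the treated livers at 21 d and 10.43 to 10.99 (median 10.65) in vehicle livers. Replicates 1, 3 and 4 of the treated group lay above all vehicle livers and replicate 2 lay below them. The difference was 0.55 ± 0.25 (SE, limma adjusted p = 0.276), or 1.47-fold with a 95% interval of 1.03 to 2.09. Over the 23 fits that left out 1 array, it ran from 0.36 to 0.78 and passed in 0 (limma adjusted p of 0.0525 to 0.524). The 0.78 came without treated replicate 2. The 4 treated livers of that fit all had a Gapdh difference over 0.9, and the vehicle livers at 21 d lay between 0.09 and 0.49. Treatment and the Gapdh difference therefore cannot be told apart in it.

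Acaca, the cytosolic acetyl-CoA carboxylase that commits acetyl-CoA to synthesis, had signals of 9.90, 9.71, 10.33, 9.93 and 9.64 in treated livers and of 9.52 to 9.90 in vehicle livers at 21 d (difference 0.21 ± 0.13 SE, limma adjusted p = 0.489). Acacb, the carboxylase at the mitochondrial membrane whose product restrains fatty acid oxidation, had 8.47, 9.20, 8.67, 8.77 and 8.83 against 8.20 to 8.80 (difference 0.25 ± 0.14 SE, limma adjusted p = 0.387). Acacb was highest in replicate 2, the treated liver with the lowest Srebf1, whereas Acaca was highest in replicate 3. The other probe sets of both genes, 1427595_at for Acaca and 1445754_at for Acacb, lay below the array medians, with differences of 0.07 and -0.00467.

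Elovl6, the elongase that extends palmitate to stearate (probe set 1417404_at), had signals of 10.54, 9.21, 10.77, 10.00 and 9.43 in treated livers and of 8.97 to 9.76 (median 9.27) in vehicle livers at 21 d. Replicates 1, 3 and 4 lay above all vehicle livers and the other treated livers lay among them. The difference of 0.70 ± 0.25 (SE) did not pass (limma adjusted p = 0.155). Over the fits that left out 1 array, it ran from 0.50 to 0.89 and passed in 1 of 23 (limma adjusted p up to 0.33). That fit was without treated replicate 2 (0.89, limma adjusted p = 0.0326), with the same limit from the Gapdh difference as for Fasn. In that fit 2265 of 45037 probe sets passed, against 431 with all arrays. With all arrays, a further bright Elovl6 probe set, 1417403_at, gave 0.60 (limma adjusted p = 0.155), and the third lay below the array medians.

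Thrsp, which encodes the thyroid hormone responsive Spot 14 protein of lipogenic tissues, had the widest spread, with signals of 14.27, 11.58, 14.70, 14.02 and 12.69 in treated livers and of 11.34 to 13.77 (median 12.72) in vehicle livers at 21 d. Again replicates 1, 3 and 4 lay above the vehicle livers, and replicate 2 lay near the lowest of them. The difference was 0.81 ± 0.44 (SE, limma adjusted p = 0.386), with a 95% interval of -0.10 to 1.72. It ran from 0.50 to 1.28 over the 23 fits that left out 1 array and passed in 0 (limma adjusted p of 0.0533 to 0.655). The 1.28 came without treated replicate 2, with the same limit as for Fasn. Another Thrsp probe set, 1422973_a_at, gave 0.66 (limma adjusted p = 0.539) and the remaining one, 1444166_at, 0.06.

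Me1, the cytosolic malic enzyme that supplies NADPH, and Scd1, the stearoyl-CoA desaturase, were the 2 genes with negative differences at 21 d. Me1 had 12.02, 11.25, 12.06, 11.78 and 11.77 in treated and 11.68 to 12.53 (median 12.33) in vehicle livers, a difference of -0.44 ± 0.14 (SE, limma adjusted p = 0.121). It ran from -0.54 to -0.30 over the fits that left out 1 array and passed in 1 of 23. That fit was without vehicle replicate 1, the lowest vehicle liver (-0.54, limma adjusted p = 0.0482). The other Me1 probe set gave -0.08 (limma adjusted p = 0.876), so the 2 Me1 probe sets differed in size.

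The 2 Scd1 probe sets differed too. The representative one gave 14.30, 14.39, 14.37, 14.56 and 14.51 in treated and 14.51 to 14.65 in vehicle livers at 21 d, close to the highest value deposited (difference -0.16 ± 0.06 SE, limma adjusted p = 0.203). The other one, 1415965_at, gave 9.92, 10.63, 10.01, 10.15 and 10.47 in treated livers and 10.84 to 10.95 in vehicle livers, with no overlap. It was the 1 member probe set of 23 that passed at 21 d, lower by a log2 difference of -0.65 ± 0.11 (SE, limma adjusted p = 0.0106), where 0.551% of all probe sets passed as lower. The call was kept in all 23 fits that left out 1 array each (adjusted p of 0.00153 to 0.0368). When adjusted for the Gapdh difference it was -0.49 (limma adjusted p = 0.188). Without the 5 arrays over a Gapdh difference of 0.9, which leaves treated replicate 2 alone at 21 d, it was -0.26 (limma adjusted p = 0.606). Deviations of the 2 probe sets from their group means correlated at r = 0.33 over 23 arrays.

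**Figure D1:**
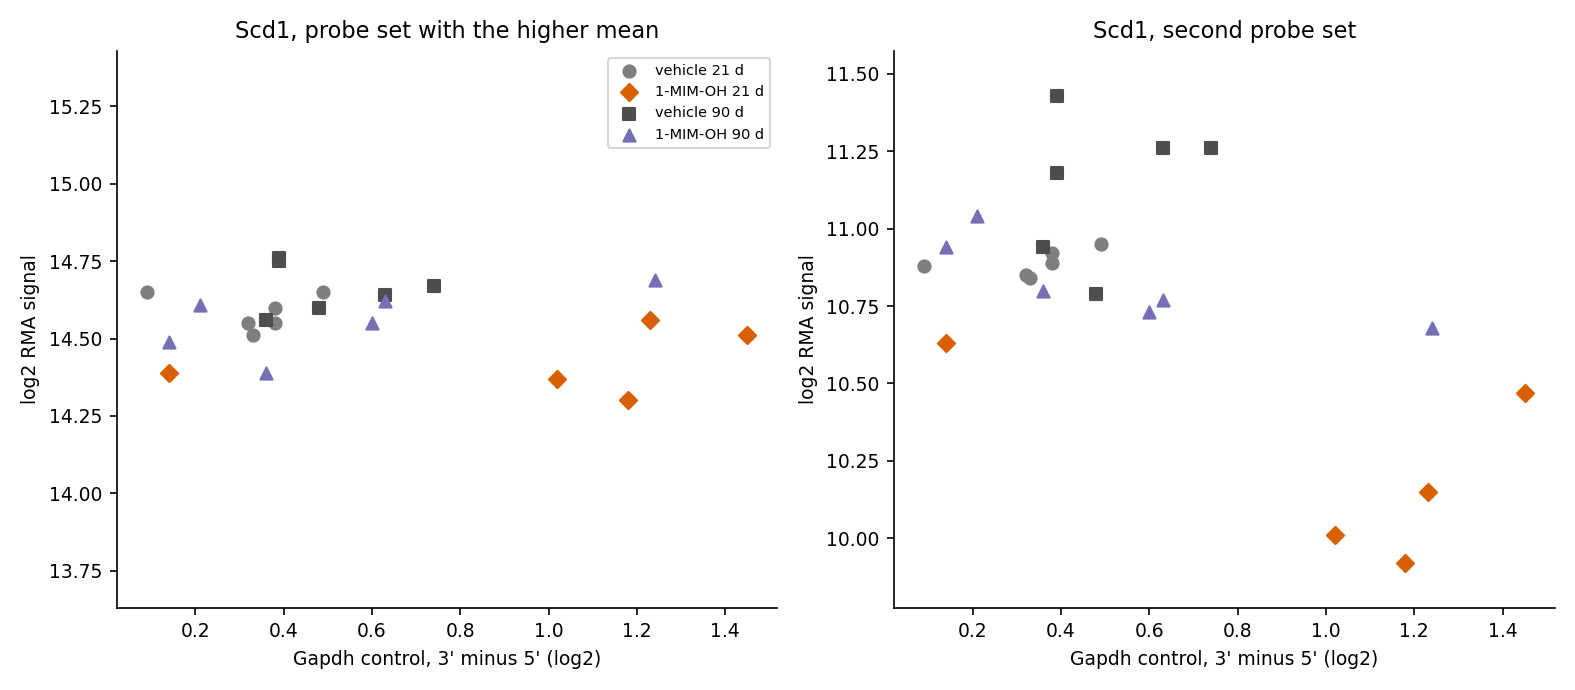
Log2 signal of the 2 Scd1 probe sets (vertical axes) against the Gapdh control, 3' end minus 5' end (horizontal axes, log2 units), in each of the 23 livers, with a symbol for each group. On 1415965_at the 5 treated livers at 21 d lie between 9.92 and 10.63, below all vehicle livers, and 4 of them have a Gapdh difference over 0.9, while on the representative probe set all livers lie between 14.30 and 14.76.

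Acly, the ATP citrate lyase, had signals of 11.80, 11.97, 11.86, 11.80 and 11.98 in treated and of 11.40 to 11.99 in vehicle livers at 21 d, so the treated livers lay within the vehicle range (difference 0.17 ± 0.12 SE, limma adjusted p = 0.533). Its probe sets differed in sign, with 0.01 for 1451666_at and -0.39 for 1425326_at, and the name of the representative one ends in x_at, which marks probes that can bind other transcripts. The 3 further Acly probe sets lay below the array medians. Pnpla3, a lipid droplet protein, had signals of 6.32, 6.54, 6.50, 6.24 and 6.38 in treated and 6.15 to 6.70 in vehicle livers (difference 0.03 ± 0.11 SE, limma adjusted p = 0.946).

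The Gapdh difference moved with part of the positive differences at 21 d. With it as a covariate, the differences were -0.12 for Srebf1, -0.02 for Fasn and -0.01 for Acaca, against 0.24, 0.55 and 0.21 without it. They were 0.28 for Elovl6 and 0.19 for Thrsp with the covariate, and -0.54 for Me1 and -0.23 for Scd1. Acacb (0.21), Acly (0.12) and Pnpla3 (0.09) also had positive differences with the covariate. Within groups, the relation of Srebf1, Fasn, Acaca, Elovl6 and Thrsp with the Gapdh difference was weaker without 2 arrays, as given further down. These were treated 21 d replicate 2 and treated 90 d replicate 6. They were picked for their extreme Gapdh deviations, which by itself can lower r. Without the arrays over 0.9, where the single treated liver left is the one with the high macrophage and neutrophil markers, Thrsp was at -1.06, Srebf1 at -0.63, Fasn at -0.35, Elovl6 at -0.085 and Acaca at 0.02. Acacb was then at 0.66, Acly at 0.26, Pnpla3 at 0.17, Scd1 at -0.20 and Me1 at -0.96 (limma adjusted p = 0.0511). None of these values passed.

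**Figure D2:**
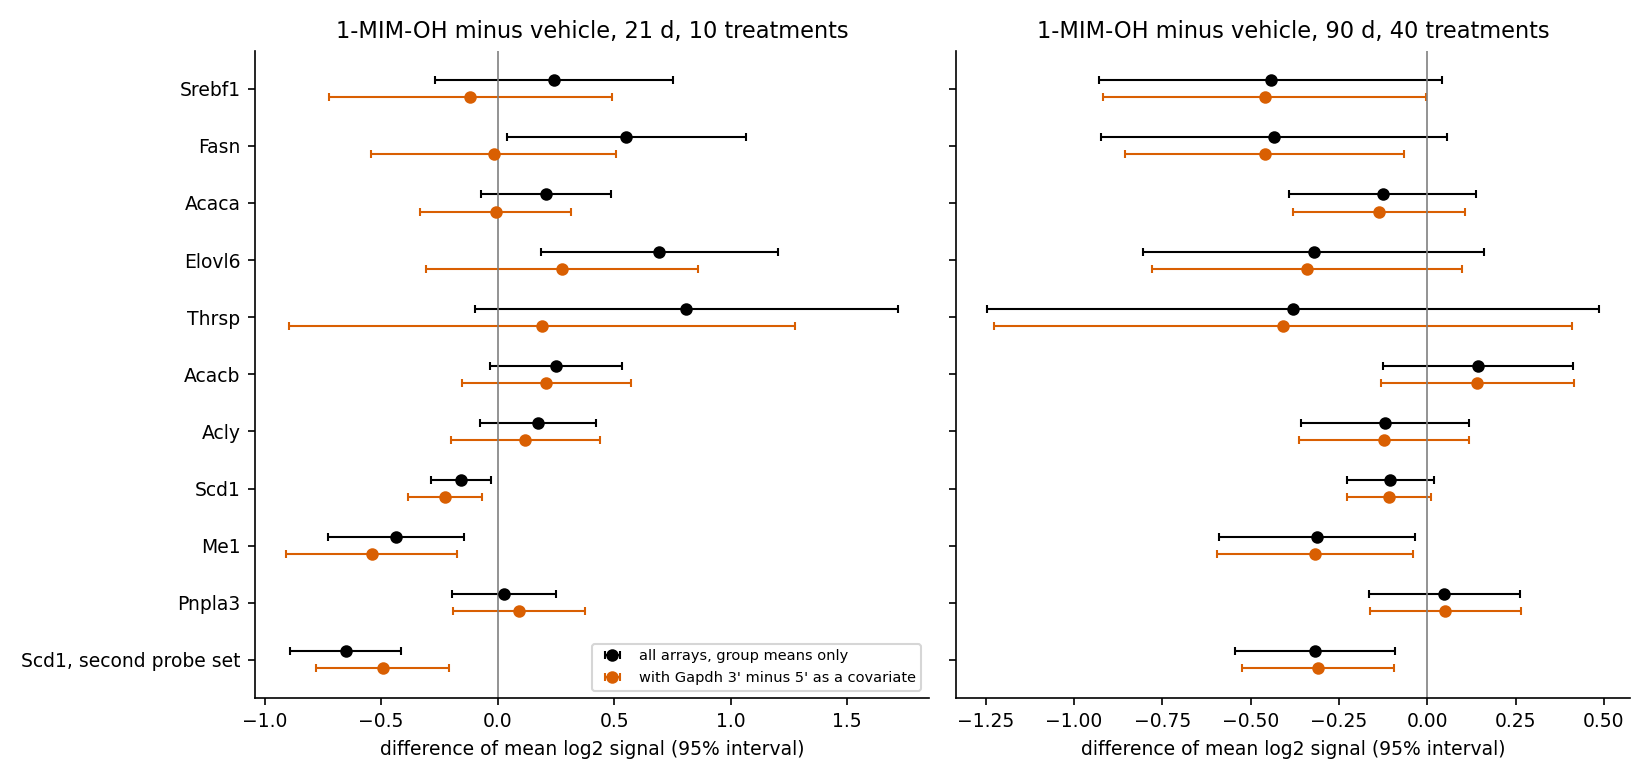
Difference of mean log2 signal between 1-MIM-OH and vehicle livers (horizontal axis) with its 95% interval for the 10 genes and the other Scd1 probe set, at 21 d (left) and 90 d (right), from all arrays with group means alone (black) and after adjustment for the Gapdh difference (orange). At 21 d the black points of Srebf1, Fasn, Acaca, Elovl6 and Thrsp lie between 0.21 and 0.81 and the orange ones between -0.12 and 0.28.

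The same comparison after 40 treatments gave mostly negative differences. Of all probe sets, 0.502% passed, and 0 of the 10 representative ones did, with 1 of the 10 and 10.2% of all probe sets at an unadjusted p under 0.05. Of the 10 differences, 8 were negative and 2 positive, with a median of -0.22 beside 0.02 over all genes, of which 57.3% were positive. None of the 10 separated the groups, which 1.01% of all probe sets did.

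Srebf1 lay between 11.25 and 12.11 (median 11.70) in the 6 treated livers and between 11.78 and 12.57 (median 12.04) in the 6 vehicle livers at 90 d, a difference of -0.44 ± 0.24 (SE, limma adjusted p = 0.547). Fasn ran from 9.78 to 11.50 (median 10.85) in treated and from 10.93 to 11.48 (median 11.17) in vehicle livers, a difference of -0.43 ± 0.24 (SE, limma adjusted p = 0.564). The Fasn range in treated livers enclosed that of the vehicle livers, with treated replicate 1 the lowest and treated replicate 6 the highest of all 12. Those 2 livers were also the lowest and the highest of the 12 for Acaca, at 9.29 and 10.22.

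Elovl6 ran from 9.18 to 10.35 in treated and from 9.62 to 10.39 in vehicle livers at 90 d (difference -0.32 ± 0.23 SE, limma adjusted p = 0.688). Thrsp ran from 11.91 to 13.60 and from 12.82 to 13.78 (difference -0.38 ± 0.42 SE, limma adjusted p = 0.811). Me1 ran from 11.45 to 11.71 and from 11.67 to 12.09, so that 3 treated livers reached just above the lowest vehicle liver, and it differed by -0.31 ± 0.13 (SE, limma adjusted p = 0.413). Scd1 differed by -0.11 on the representative and by -0.32 on the other probe set (limma adjusted p = 0.581 and 0.263). Acaca, Acly, Acacb and Pnpla3 differed by -0.13, -0.12, 0.14 and 0.05.

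**Figure D3:**
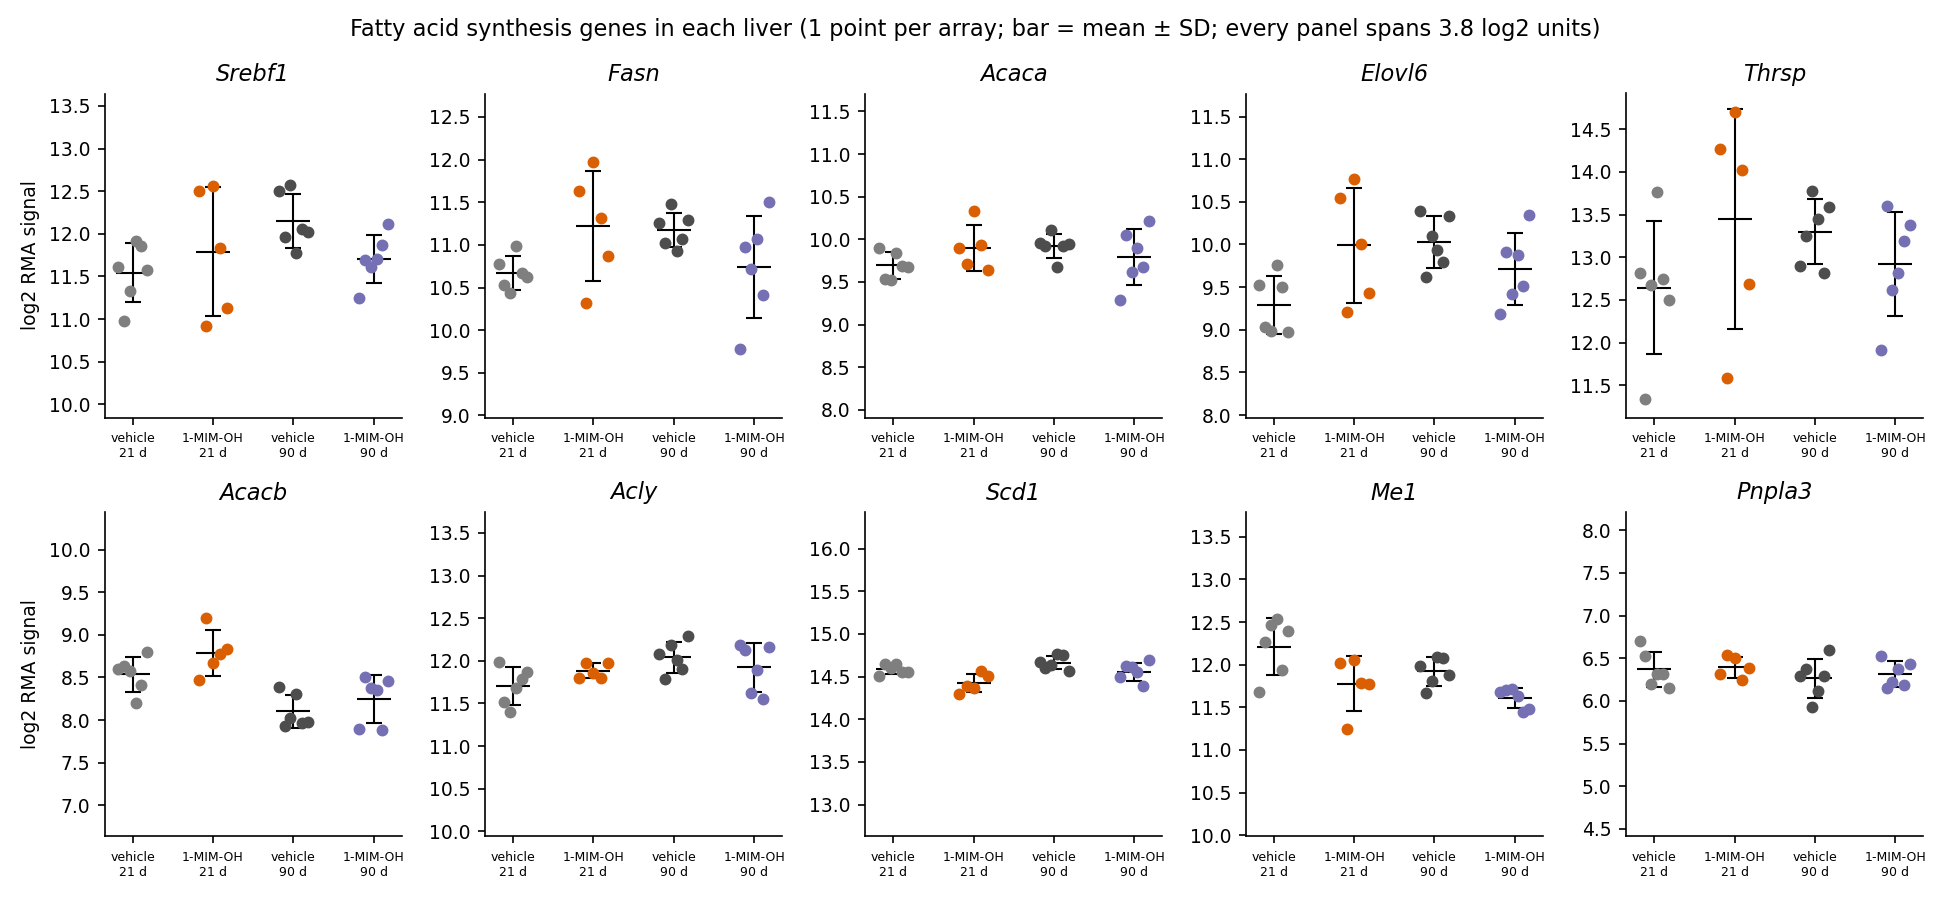
Log2 RMA signal (vertical axes, each spanning 3.8 log2 units) of the 10 genes in each liver, by group on the horizontal axes, with 1 point per array and bars for the mean ± SD. Thrsp ranges from 11.34 to 14.70 over the 23 livers and Scd1 from 14.30 to 14.76, and treated and vehicle livers overlap in every panel at both times.

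Whether the treatment effect differed with duration was tested as the effect at 90 d minus that at 21 d, for which 0% of all probe sets passed (9.59% at an unadjusted p under 0.05). The 10 genes gave 0 passing and 2 at an unadjusted p under 0.05, Fasn and Elovl6. The difference was -1.02 ± 0.34 (SE, limma adjusted p = 0.492) for Elovl6 and -0.99 ± 0.34 (SE, limma adjusted p = 0.492) for Fasn. It was -1.19 ± 0.61 for Thrsp, -0.69 ± 0.34 for Srebf1 and -0.34 ± 0.19 for Acaca. Of the 10, 7 were negative, with a median of -0.31 beside 0.04 over all genes. With the Gapdh covariate, Elovl6 was at -0.62 and Fasn at -0.44. Without the arrays over a Gapdh difference of 0.9, Elovl6 was at -0.37 and Fasn at -0.24, and Srebf1 was at 0.10 and Thrsp at 0.59.

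The level under the vehicle alone also entered these differences. Vehicle livers at 90 d against vehicle livers at 21 d gave 0.00666% of all probe sets passing (0.00222% higher and 0.00444% lower at 90 d), 0 of the 10 genes passing, and 6 of the 10 at an unadjusted p under 0.05, beside 5.96% of all probe sets. The difference, 90 d minus 21 d, was 0.74 ± 0.23 (SE) for Elovl6 (limma adjusted p = 0.735), 0.60 ± 0.24 for Srebf1 (SE, limma adjusted p = 0.768), 0.51 ± 0.24 for Fasn (SE, limma adjusted p = 0.824) and 0.33 ± 0.12 for Acly (SE, limma adjusted p = 0.763). Acacb differed the other way, by -0.44 ± 0.13 (SE, limma adjusted p = 0.671), and so did Me1, by -0.29 ± 0.13 (SE, limma adjusted p = 0.818). On the other Me1 probe set, 1416632_at, the vehicle means were 10.64 at 21 d and 10.59 at 90 d. The 90 d group had both a longer time and a larger number of vehicle doses, so these cannot be told apart here. Age when killed, which the labels do not give, cannot be told apart from them either.

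Treated livers at 90 d against treated livers at 21 d gave 0.0755% of all probe sets passing and 0 of the 10 genes. Acacb came nearest, at -0.54 ± 0.14 (SE, limma adjusted p = 0.128), and passed without treated 90 d replicate 6 (-0.59, limma adjusted p = 0.0467). The Scd1 probe set 1415965_at was 0.59 ± 0.11 (SE) higher at 90 d and passed by a narrow margin (limma adjusted p = 0.0497), where 0.0688% of all probe sets passed as higher. It passed in 6 of the 23 fits that left out 1 array, and was 0.48 (limma adjusted p = 0.39) when adjusted for the Gapdh difference. The comparisons between the times share their arrays with the treatment comparisons.

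In order of group means, Srebf1, Fasn, Acaca, Elovl6 and Thrsp were all lowest in vehicle livers at 21 d and next in treated livers at 90 d. The upper 2 places were held by treated livers at 21 d and vehicle livers at 90 d, whose Elovl6 means were 9.99 and 10.03. Acacb had another order, with vehicle livers at 90 d lowest (8.10), then treated livers at 90 d (8.25), vehicle livers at 21 d (8.54) and treated livers at 21 d (8.79). For the 5 genes first named, neighbouring means lay closer together than the larger of their SDs.

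The spread between animals of a group was wide for part of the genes. The pooled SD within groups was 0.80 for Thrsp, larger than that of 99.2% of 10844 genes with a mean of at least 6, and 0.45 for Srebf1, 0.45 for Fasn and 0.44 for Elovl6, larger than that of 96.5% to 96.6%. Thrsp spanned a 10.3-fold range over the 23 livers, Fasn 4.56-fold, Elovl6 3.48-fold and Srebf1 3.14-fold. Acaca (0.24), Acacb (0.24), Me1 (0.25), Acly (0.21) and Pnpla3 (0.19) had smaller SDs. These were larger than those of 82.4%, 83%, 84.6%, 75.8% and 66.2% of the genes. Scd1 had a pooled SD of 0.09, larger than that of 4.91% of the genes, on a probe set near the top of the scale.

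Animals that were high for 1 of the variable genes tended to be high for the others. Deviations of each liver from its own group mean were correlated over the 23 arrays for all 45 pairs of genes, with permutation tests (100000 draws within groups, 2-sided) adjusted with the Benjamini-Hochberg method over these pairs and 11 relations with the Gapdh difference. All 10 pairs among Srebf1, Fasn, Acaca, Elovl6 and Thrsp passed, with Pearson's r between 0.68 and 0.89, Spearman's rho between 0.68 and 0.87, and adjusted permutation p-values of at most 0.00386 for r and 0.0102 for rho. This grouping of 5 genes was made after the values were seen. The other 35 pairs had r between -0.39 and 0.44, and none passed.

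The highest r were those of Fasn with Elovl6 (r = 0.89, rho = 0.87, adjusted permutation p = 0.00028), Fasn with Acaca (r = 0.88, rho = 0.87, adjusted permutation p = 0.00028) and Srebf1 with Elovl6 (r = 0.86, rho = 0.81, adjusted permutation p = 0.00112). The raw permutation p of Fasn with Elovl6 and of Fasn with Acaca was 1e-05, the smallest that these draws can give. Leaving out the 2 arrays farthest from the median of the gene on the x axis gave r of 0.57 to 0.88 for the 10 pairs. Within single groups, Fasn with Acaca had r between 0.84 and 0.95, whereas Srebf1 with Thrsp had r between 0.04 and 0.95, each over 5 or 6 livers.

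Some livers lay low or high for all 5 genes. The 10 pairs passed in each of the 23 fits that left out 1 array. In the treated group at 21 d, replicate 2 lay below its group mean for all 5 genes and replicate 3 above it for all 5. At 90 d, treated replicate 1 was the lowest of its group for all 5 genes. In that liver the marker sums were 12.99 for macrophages and 7.24 for neutrophils, against 14.79 and 11.79 in treated 21 d replicate 2. A relation of these sums to the 5 genes was not tested. Acly in treated 90 d replicate 1 was 12.18, the highest of its group, and Acacb was 7.89.

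**Figure D4:**
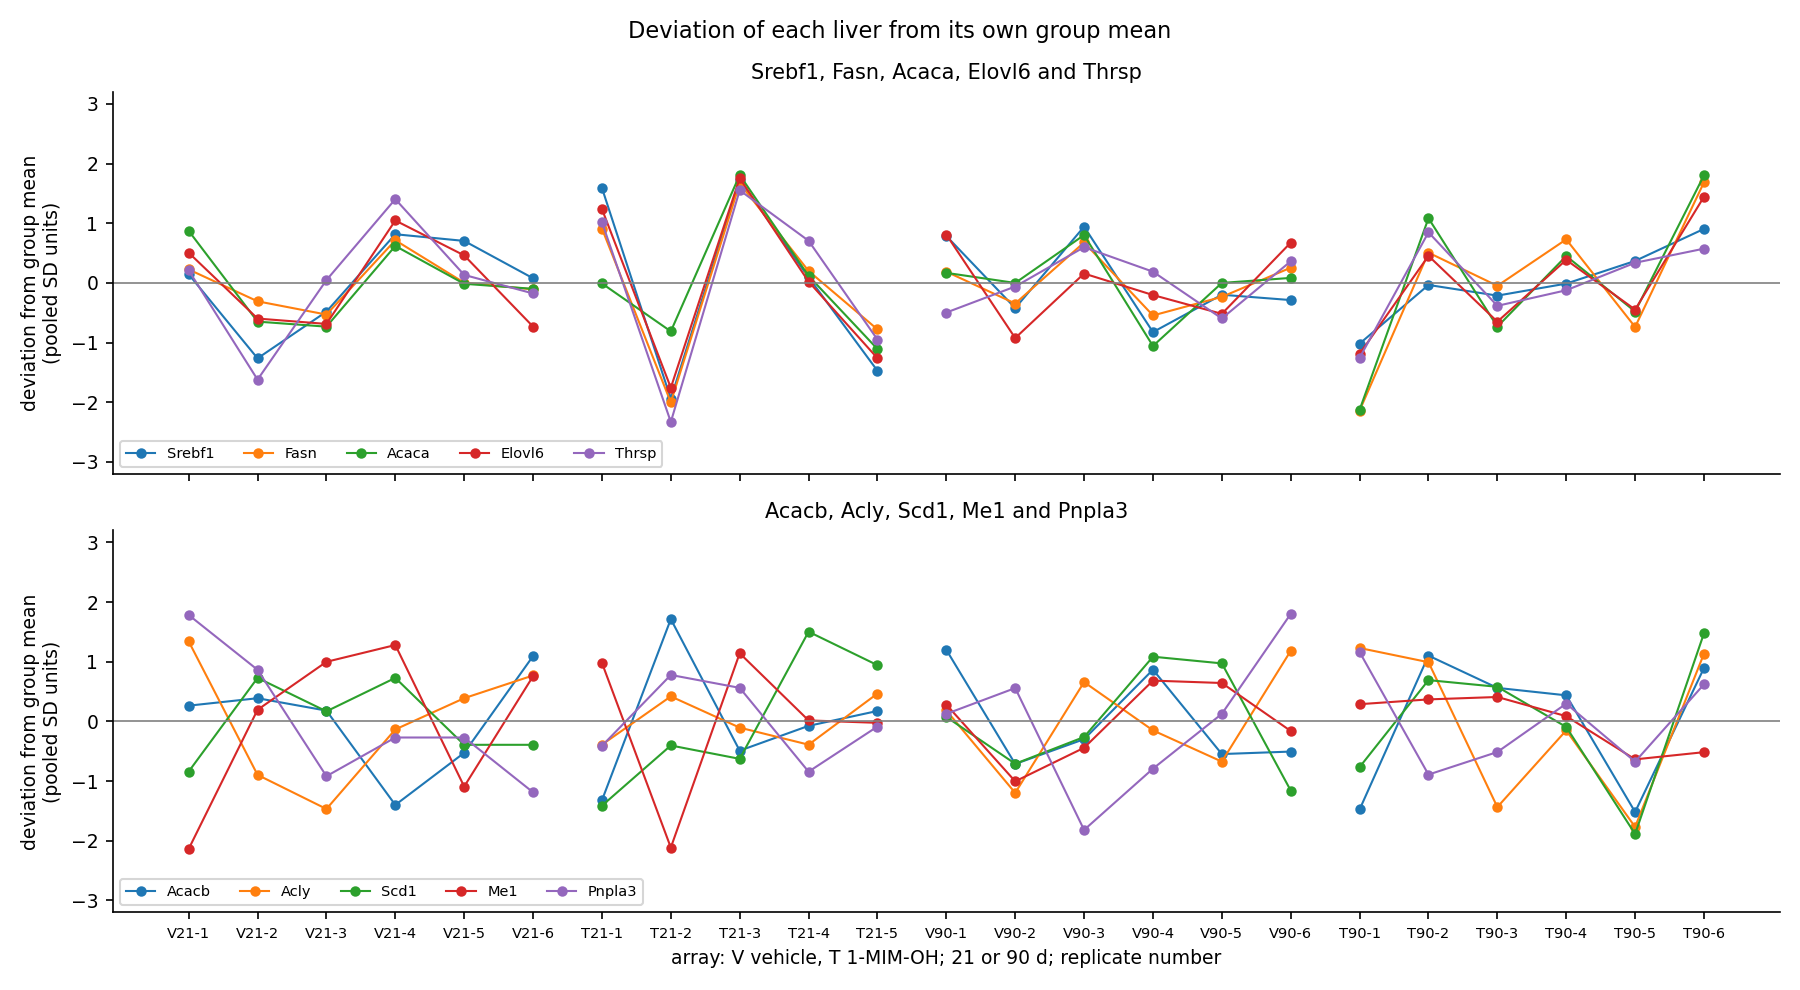
Deviation of each liver from its group mean (vertical axes, in units of the pooled SD of each gene) for Srebf1, Fasn, Acaca, Elovl6 and Thrsp (top) and for Acacb, Acly, Scd1, Me1 and Pnpla3 (bottom), with arrays along the horizontal axis; lines join values of 1 gene within a group and imply no order. The top lines move together, with low values in treated 21 d replicate 2 and treated 90 d replicate 1, and the bottom lines cross.

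The Gapdh difference varied in part with the same genes. Its deviations correlated with those of Fasn at r = 0.61 (rho = 0.41, raw permutation p = 0.0325, adjusted permutation p = 0.165). It was r = 0.29 without the 2 arrays whose Gapdh deviation lay farthest from the median, treated 21 d replicate 2 and treated 90 d replicate 6. Leaving out the extremes of 1 of the 2 measures can by itself lower r. Without the same 2 arrays, r went from 0.39 to 0.03 for Srebf1 and from 0.45 to 0.24 for Acaca. For Elovl6 it went from 0.46 to 0.09 and for Thrsp from 0.38 to -0.03. None of the 11 relations with it passed. After removal of the Gapdh deviation from each gene, the 10 pairs had r between 0.61 and 0.87. Without the 5 arrays over a Gapdh difference of 0.9, 6 of the 45 pairs passed over 18 arrays. Among these 6 was Scd1 with Me1 (r = 0.64). Of the 10 pairs, 5 did not pass, namely those of Thrsp with Fasn, Acaca, Srebf1 and Elovl6 and that of Srebf1 with Elovl6, which had r between 0.59 and 0.65.

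**Figure D5:**
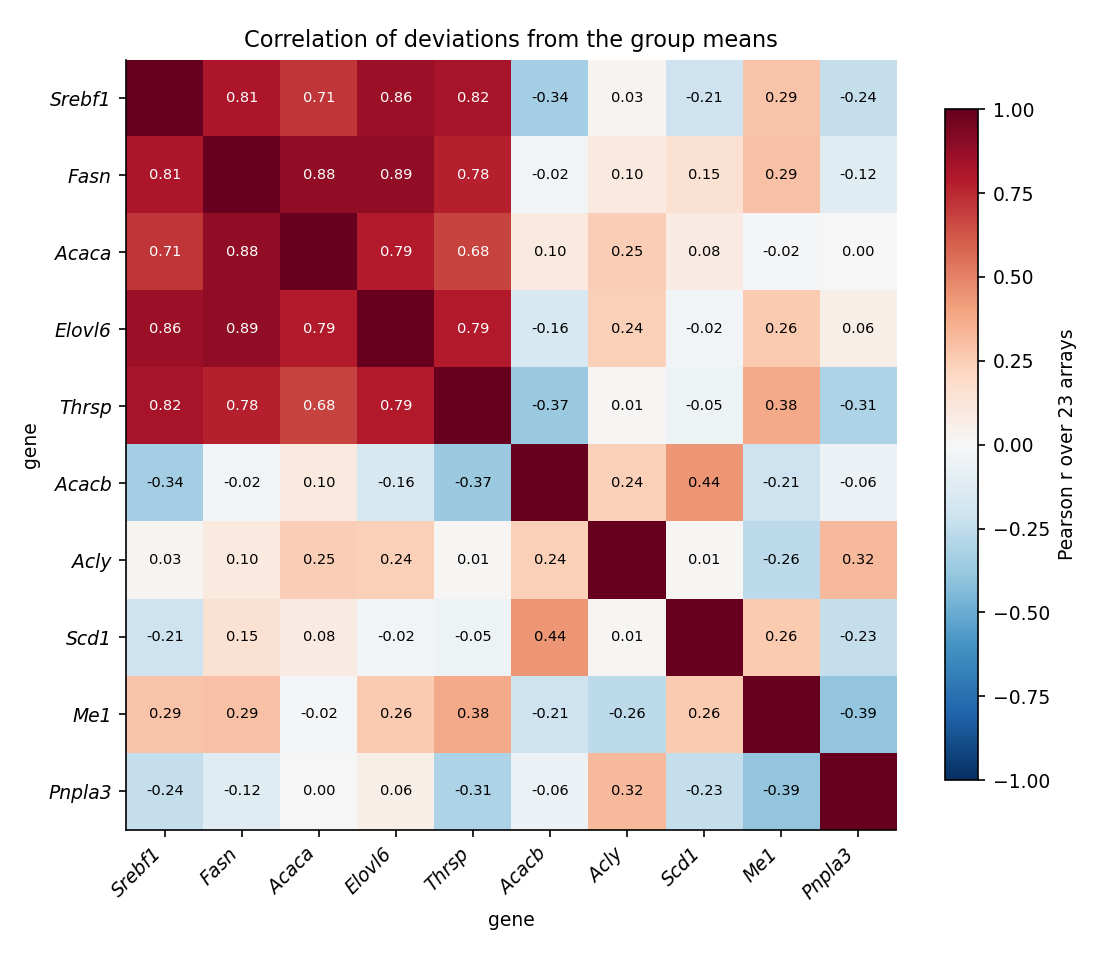
Pearson's r between deviations from the group means over 23 arrays for all pairs of the 10 genes (both axes list the genes, colour and number give r). Srebf1, Fasn, Acaca, Elovl6 and Thrsp form a block with r of 0.68 to 0.89, and all other cells off the diagonal lie between -0.39 and 0.44.

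Among other genes of the pathway, those named whatever their result followed the mean deviation of the 10 genes to different degrees, given as a description over 23 arrays. Of 10834 genes compared, Pklr, the liver pyruvate kinase, had r = 0.80 and Insig1, which retains SREBP in the endoplasmic reticulum and is itself an SREBP target, had r = 0.79. Insig2, its relative, had r = -0.78 and stood at place 10831 of 10834. Fads2, a desaturase of polyunsaturated fatty acids, had r = 0.76, Dgat2, which makes triglycerides, 0.72, and Mid1ip1, a partner of Thrsp, 0.66 with the mean and 0.87 with Srebf1. Mlxipl (0.06), Nr1h3, the liver X receptor alpha (0.15), Acss2 (0.11) and Elovl5 (-0.01) stood near 0. Fads1 (0.61), Gpam (0.62) and Slc25a1, the citrate carrier (0.55), lay between. With the Gapdh deviation removed, r was -0.34 for Mlxipl, -0.23 for Elovl5, 0.23 for Nr1h3, 0.02 for Acss2 and 0.38 for Fads1. It was 0.70 for Pklr, 0.71 for Insig1, -0.69 for Insig2, 0.65 for Fads2, 0.57 for Dgat2, 0.52 for Mid1ip1, 0.65 for Gpam and 0.46 for Slc25a1.

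The 8 genes with the highest r outside the list were Kank2 (0.88), 2310022B05Rik (0.87), Prmt7 (0.85), Ecsit (0.83), Flad1 (0.83), Tbl3 (0.82), Mrps27 (0.81) and Gart (0.80). Of these, Flad1, the FAD synthase, and Tbl3 passed as higher in treated livers at 21 d, by 0.48 (limma adjusted p = 0.0163) and 0.50 (limma adjusted p = 0.049). The others did not pass, and 0.406% of all probe sets passed as higher. The treatment differences of Flad1 and Tbl3 were not followed under the Gapdh covariate or the other alternatives. With the Gapdh deviation removed, the r of the 8 genes was between 0.74 and 0.85.

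The wider pathway was read from 7 lists with 135 genes, of which 120 were measured, and 3 of these passed in a treatment comparison, 1 at 21 d and 2 at 90 d, where 0.957% and 0.502% of all probe sets passed. Nothing about the lists is read from counts this close to the share over all probe sets. Of 25 genes of triglyceride assembly and lipid droplets, 1 was lower and 0 were higher at 21 d, and 1 was higher and 0 were lower at 90 d, with a median difference of 0.04 at both times. Hsd17b13, a lipid droplet dehydrogenase, fell from 10.23 ± 0.20 (SD, n = 6) to 9.72 ± 0.25 (SD, n = 5) at 21 d (log2 difference -0.51 ± 0.11 SE, limma adjusted p = 0.0304), and was -0.44 at 90 d (limma adjusted p = 0.062). With the Gapdh covariate its value at 21 d was -0.51 and did not pass (limma adjusted p = 0.192), whereas its value at 90 d was -0.44 and passed (limma adjusted p = 0.0453). It passed at 90 d also over the mean of its probe sets (-0.42, limma adjusted p = 0.00564) and among probe sets with a mean of at least 6 (limma adjusted p = 0.0419). Without the arrays over a Gapdh difference of 0.9 it was -0.39 at 90 d. With 1 array left out, Hsd17b13 passed at 90 d in 2 of 23 fits (limma adjusted p of 0.0418 to 0.162). At 21 d it passed in 18 of 23 (limma adjusted p of 0.0167 to 0.0882). Abhd5, the activator of the triglyceride lipase Pnpla2, rose from 8.89 ± 0.15 (SD, n = 6) to 9.44 ± 0.27 (SD, n = 6) at 90 d (log2 difference 0.54 ± 0.11 SE, limma adjusted p = 0.0154), and over the mean of its probe sets it was 0.19 and did not pass (limma adjusted p = 0.316).

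Of 16 measured circadian clock genes, 0 passed at 21 d and 1 was lower at 90 d. Cry1, a repressor of the clock, fell from 7.49 ± 0.29 (SD, n = 6) to 6.98 ± 0.18 (SD, n = 6) (log2 difference -0.52 ± 0.12 SE, limma adjusted p = 0.0462), and passed in 6 of the 23 fits that left out 1 array. The other lists had 0 passing genes at both times with all arrays. Without treated 21 d replicate 2, Insig1 (0.45, limma adjusted p = 0.0413), Insig2 (-0.39, limma adjusted p = 0.0298) and Fads2 (0.36, limma adjusted p = 0.0305) passed at 21 d. The treated 21 d livers left in that fit all had a Gapdh difference over 0.9. Without the arrays over a Gapdh difference of 0.9, Pklr passed at 90 d (-0.35, limma adjusted p = 0.0338). The lists were 23 regulators of fatty acid synthesis (medians 0.09 at 21 d and 0.01 at 90 d), 15 genes of precursor and NADPH supply (0.04 and 0.04), 18 of elongation and desaturation (-0.01 and 0.00), 12 of fatty acid uptake and liver X receptor targets (-0.08 and 0.00) and 11 fasting genes (-0.15 and -0.17), beside -0.02 and 0.02 over all genes. Their largest differences at 21 d were Mlxipl at 0.61 (limma adjusted p = 0.261), the glucose transporter gene Slc2a2 at -0.30 (limma adjusted p = 0.0634), Acsl3 at 0.38 (limma adjusted p = 0.306), Vldlr at -0.52 (limma adjusted p = 0.183) and G6pc, the glucose-6-phosphatase gene, at -0.89 (limma adjusted p = 0.176). At 90 d they were Mid1ip1 at -0.44, Pklr at -0.24, Acot1 at -0.70, Vldlr at -0.65 and Cyp4a14 at -0.87 (limma adjusted p of 0.141 to 0.76).

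Between animals, the mean deviation of the fasting list ran against that of the 10 genes (r = -0.60, rho = -0.53 over 23 arrays) and that of precursor and NADPH supply ran with it (r = 0.63, rho = 0.62), as descriptions without a test. The circadian clock list had r = 0.47, the regulators 0.44 and triglyceride assembly 0.40. Uptake and liver X receptor targets had r = -0.30, and elongation and desaturation -0.02. Of the marker lists, T and NK cells had r = -0.44 (1 of 4 measured genes with a mean of at least 6) and endothelial cells -0.43. The Kupffer cell and macrophage list had r = -0.36, the neutrophil list -0.21, and the other marker lists between -0.21 and 0.28. Between the groups, all 8 Kupffer cell and macrophage markers had negative treatment differences at 21 d (median -0.39) and positive ones at 90 d (median 0.33), with 0 passing at either time and summed signals of 12.15 to 14.79 and 12.30 to 13.85 in treated livers and 12.50 to 14.31 and 12.38 to 13.89 in vehicle livers. Their part in the values of the 10 genes was not tested.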

How the data were processed

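Total RNA from liver was hybridised to Affymetrix whole-genome mouse arrays. The deposited values are log2 signals per probe set that the authors made with Partek and RMA, per the submitters' processing notes. Program versions: not given in the sources used here. That the base is 2 follows from the value range and from RMA, and no label states it. RMA brings arrays to a common distribution, so a shift shared by all genes would not show. No scanner files were used, so probes could not be set against background.

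Of 45101 probe sets, 64 control probe sets were left out of the tests. The annotation table paired 34945 with 1 gene, 932 with several and 9160 with none, and the Entrez identifiers of 34741 matched RefSeq genes (GRCm38.p6). No build is named for the array, so no probe set coordinates are given. limma 3.58.1 (lmFit, then eBayes, under R 4.3.3) fitted the 4 group means over 23 arrays (19 residual degrees of freedom), which gave the SE and 95% intervals. The fit was tested on simulated data. Each array is 1 animal, and the p-values reflect variation between animals, whereas the number of arrays limits precision. The labels name no batch. Alternatives were the average of all probe sets, a fit of the compared groups alone, a minimum mean signal, quantile normalization, median centring, a replicate block, the Gapdh difference as covariate or as a limit on arrays, eBayes with trend, and leaving out each array.

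The genes, lists and tests were chosen with earlier results of these data known. The rule for named genes took the 10 genes, 14 pathway genes (13 analysed here), passing list members (up to 3 per comparison), for lists with none passing the member with the largest change at each time, and the 8 genes of most similar pattern.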

Additional observations from a re-analysis of the deposited data

How the results depend on the processing

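The counts of the 10 genes passing were 0 in all 5 comparisons, and 1 at 21 d and 1 for treated livers at 90 d against 21 d when each gene was taken as the average of its probe sets, with Scd1 the gene that passed (-0.41 and 0.36). Leaving out 1 array gave 0 to 1 at 21 d (Elovl6 without treated replicate 2, Me1 without vehicle replicate 1), 0 to 1 for treated livers at 90 d against 21 d (Acacb without treated 90 d replicate 6) and 0 to 0 in the other comparisons. The count of correlated pairs was 6 without arrays over a Gapdh difference of 0.9, 9 over averages of probe sets, and 10 to 10 when 1 array was left out. All these alternatives for the pairs were chosen after the data were seen. They used 20000 draws and adjustment over the 45 pairs alone.

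With the Gapdh covariate, signs turned at 21 d for Srebf1 (-0.12), Fasn (-0.016), Acaca (-0.0086), Pklr (-0.068), Fads1 (-0.11) and Dgat2 (-0.042), at 90 d for Fads1 (-0.0063), for treated livers at 90 d against 21 d for Srebf1 (0.17), Acaca (0.045) and Elovl6 (0.013), and for Pnpla3 in the difference of effects (-0.039). Without arrays over 0.9 they turned at 21 d for Srebf1 (-0.63), Fasn (-0.35), Elovl6 (-0.085), Thrsp (-1.06), Mlxipl (-0.22), Insig1 (-0.16), Insig2 (0.23), Pklr (-0.12), Fads1 (-0.22), Fads2 (-0.16) and Dgat2 (-0.21), at 90 d for Fads1 (-0.016), in the difference of effects for Srebf1 (0.10), Thrsp (0.59), Pnpla3 (-0.14) and Scd1 probe set 1415965_at (-0.029), and for treated livers at 90 d against 21 d for Srebf1 (0.70), Fasn (0.27), Acly (-0.10), Elovl6 (0.37), Me1 (0.38) and Thrsp (1.25). That setting leaves 1 treated array at 21 d, assumed to vary like the other groups. Over the mean of all probe sets they turned for Acly at 21 d (-0.058), Me1 in the difference of effects (-0.026) and Acss2 at 21 d (0.036) and 90 d (0.06). At 90 d, quantile normalization turned Acss2 (0.0014) and Fads1 (-0.010), and median centring Fads1 (-0.0033). The causes of these turns were not tested.

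Leaving out 1 array also turned signs within these ranges: for treated livers at 90 d against 21 d, Srebf1 -0.30 to 0.11 and Acly -0.012 to 0.11; in the difference of effects, Me1 -0.0075 to 0.23 and Pnpla3 -0.045 to 0.089; at 21 d, Pnpla3 -0.018 to 0.092, Mid1ip1 -0.29 to 0.14 and Cry1 -0.022 to 0.092; at 90 d, Pnpla3 -0.019 to 0.12, Acss2 -0.077 to 0.13, Fads1 -0.050 to 0.052 and Dgat2 -0.072 to 0.03.

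The replicate block, with replicate numbers as a block, left the count of the 10 genes at 0 in every comparison and turned Acly for treated livers at 90 d against 21 d to -0.0036. It ended the calls of Scd1 probe set 1415965_at for treated livers at 90 d against 21 d (0.61, limma adjusted p = 0.0992) and of Cry1 at 90 d (limma adjusted p = 0.0934). A fit of the compared groups alone ended the same calls (limma adjusted p = 0.369 and 0.103) and those of Hsd17b13 at 21 d (0.083) and Abhd5 at 90 d (0.0574). Same-numbered livers of treated and vehicle groups correlated at -0.36 to -0.14 (0 of 11 pairs over 0.1), so the numbers were not taken to pair samples. Over all probe sets, 431 passed at 21 d and 226 at 90 d, against 91 and 148 with the block, 123 and 504 with the Gapdh covariate, 207 and 149 from the groups compared alone, 813 and 254 among probe sets with a mean of at least 6, 240 and 214 over means of probe sets, and 404 and 761 without the arrays over 0.9. Leaving out 1 array gave 133 (vehicle 21 d replicate 2) to 2265 (treated 21 d replicate 2) at 21 d and 114 to 389 at 90 d. For the difference of effects, 0 passed with all arrays, 6 without those over 0.9 and 53 without treated 21 d replicate 2. Vehicle livers at 90 d against 21 d gave 3, and 0 to 20 under the alternatives, and treated livers gave 34, and 2 to 77, or 10 to 1644 when 1 array was left out (1644 without treated 21 d replicate 2).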
